A study of Rattus norvegicus with 15 samples.

Results

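The genes described here encode the respiratory chain and ATP synthase of the mitochondrial inner membrane, measured in the intestine of Wistar rats, sham-operated diabetic rats and diabetic rats after Roux-en-Y gastric bypass (RYGB). They were found by name: a named, noncontrol probe belonged if the gene name in the array files started with Nduf, Uqcr, Atp5, Cox4, Cox5, Cox6, Cox7 or Cox8, and the tested probe with the brightest signal stood for its gene. The rule took 99 of 22503 named probes and gave 80 genes, of which 76 were tested among 13024 tested genes. By complex, the tested members were 7 core and 26 accessory subunits of complex I, 3 complex I assembly factors, 6 subunits of complex III, 13 of complex IV, 5 of the F1 part of ATP synthase and 10 of its Fo part and stalk. The other 6 carry such a name without being a subunit.

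The respiratory chain passes electrons from NADH and other donors through complexes I, III and IV to oxygen and pumps protons across the inner membrane, and ATP synthase uses the returning protons to make ATP. Most subunits are encoded in the nucleus and imported, whereas a small set of membrane subunits is encoded by mitochondrial DNA. Enterocytes are rich in mitochondria, which power the sodium pump that drives nutrient uptake.

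RNA was extracted from each sample on its own, with 5 samples from male rats in each of 3 groups and 1 array per sample. GK-S-30 rats were Goto-Kakizaki (GK) rats, an inbred, lean strain derived from Wistar rats that becomes diabetic without treatment, and they received RYGB at 16 wk of age with a Roux limb (RL) of 30 cm, the stretch of jejunum joined to the upper stomach pouch. GK-Sham-PF rats were GK rats that were sham operated, also at 16 wk of age, with the gut cut 16 cm from the ligament of Treitz and rejoined. They were then pair-fed to the lowest mean intake among the surgical groups of the study, so that their intake was not set by that of GK-S-30 rats alone. Wistar rats were age-matched normal controls with no described operation. Tissue was taken 14 wk after the operation following an overnight fast, as a 5-cm piece of the RL 5 cm below the stomach or as the piece 21 to 26 cm from the ligament of Treitz in the other groups. GK-Sham-PF and Wistar rats therefore differ in strain, operation and feeding at the same time, and GK-S-30 differs from Wistar by the same factors and the bypass. No separation of the mucosa from the muscle wall is described, and in such bulk tissue fewer cells of a type and less RNA per cell cannot be told apart. From here on, RYGB stands for GK-S-30 and sham for GK-Sham-PF.

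Levels are log2 values of the processed signal after quantile normalization, in arbitrary units, and a member is said to be called if its limma p, adjusted over all tested genes, was below 0.05. Differences are given on the log2 scale with the standard error (SE) of the fit. Arrays of the same group correlated at 0.981 to 0.994 over genes, and single arrays had 66.7% to 74.8% of their probes well above background. Before normalization the signal was dimmer on 2 arrays, the sham replicate 5 and the Wistar replicate 3. The arrays lay on 4 slides, and Wistar and RYGB arrays shared none. All 12 epithelial markers on the list (Vil1, Cdh1, Fabp1, Fabp2 and others) were tested, and their summed signal ranged from 914203 to 1073620 over the 15 arrays. Singly, 2 of the 12 (16.7%, beside 9.65% of all tested genes) were called in RYGB against sham, both higher. In RYGB against Wistar 4 (33.3% beside 26.2%) were called, 3 higher and 1 lower. The 8 tested smooth muscle markers summed to 27156 to 47685 in Wistar, 24943 to 52949 in sham and 86982 to 113209 in RYGB arrays, and the 8 striated muscle markers to 975 to 1190, 1027 to 1390 and 1806 to 2317. The 8 tested leukocyte markers summed to 5817 to 8907, 5949 to 8091 and 4233 to 5513, and the 7 tested enteric neuron and glia markers to 1905 to 2477, 1997 to 2870 and 1542 to 2020. Of the members, 75 were well above background on all 15 arrays, and no spot of a member was saturated.

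The comparison of RYGB with sham sets the RL beside the matching gut segment of the same strain without a bypass. Of the 76 members, 1 was called, against 9.65% of all tested genes (5.16% higher and 4.49% lower): Ndufa4, a subunit now placed in complex IV, which was 1.28-fold lower. The arrays of 3 members did not overlap, 1 higher and 2 lower, beside 9% of all tested genes. The members' median difference was -0.04, beside -0.03 over all genes. Their means were lower for 46 and higher for 30, beside 7171 lower and 5853 higher of all tested genes. The members' split turned under scaling to the 75th percentile, with 50 higher and 26 lower, beside 5926 higher and 7098 lower of all tested genes. For 69 of 76 members the 95% interval of the difference lay within 1.5-fold in either direction, against 7945 of 13024 genes, and the median SE of the members was 0.087 beside 0.146 over all genes. The members' probes were also brighter, with a median level of 14.37 beside 8.14 over all tested genes. The part of brightness in these intervals was not tested.

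The comparison of sham with Wistar describes the diabetic strain without a bypass, with the sham operation and pair-feeding included. Here 4 members were called, against 8.83% of all tested genes (4.2% higher and 4.63% lower). Ndufa12 and Ndufa8, accessory subunits of complex I, were higher, and Ndufb8, another accessory subunit, and Atp5s, a name kept from ATP synthase, were lower. The arrays of 6 members lay wholly higher and those of 4 wholly lower, beside 9.69% of all tested genes. The mean was higher in sham for 59 of 76 members, beside 6774 of 13024 tested genes. The median difference was 0.06 beside 0.01 over all genes. The members were read on the same arrays, so these counts are descriptions. By array, the mean level over all members overlapped, at 13.34 to 13.44 in Wistar and 13.40 to 13.49 in sham. The number of members with a higher mean was 56 under scaling to the 75th percentile and 59 with another background correction (normexp). With slide as a block it was 55. That fit compares sham with Wistar only on the slide holding 1 Wistar and 3 sham arrays. The mean was also higher for 11 of 11 markers of mitochondrial mass (median 0.18) and 52 of 70 mitochondrial ribosomal proteins (median 0.12), counted below. For complex II it was higher for 2 of 4 genes, and for assembly factors outside the name rule for 16 of 29. For 70 of 76 members the 95% interval lay within 1.5-fold, against 8177 of 13024 genes.

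RYGB against Wistar sets the operated diabetic gut beside the normal one, and this comparison shares its arrays with the others. Of the members, 8 were called, against 26.2% of all tested genes (12.4% higher and 13.9% lower). Ndufs8, Ndufa12, Ndufa8 and Ndufb6 of complex I, Cox7c of complex IV and the pseudogene Cox6c-ps1 were higher, and Ndufb8 and Atp5s were lower. Cox6c-ps1 passed the background filter only through the RYGB arrays, being well above background on 1 Wistar, 2 sham and 5 RYGB arrays, so its count here is a description. The arrays of 6 members lay wholly higher and those of 3 wholly lower, beside 19.5% of all tested genes. The median difference was 0.05 beside -0.02 over all genes. The members' means were higher for 46 and lower for 30, beside 6224 higher and 6800 lower of all tested genes. Under scaling to the 75th percentile the members' median was 0.11 with 55 higher. With slide as a fixed block no member was called in any of the 3 comparisons, while 285, 179 and 237 of all tested genes were. By the methods' own comparison, a one-way model with Tukey's correction and no adjustment over genes, 8, 12 and 16 members passed in the order given here, beside 16.3%, 14.7% and 29% of all tested genes.

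**Figure D1:**
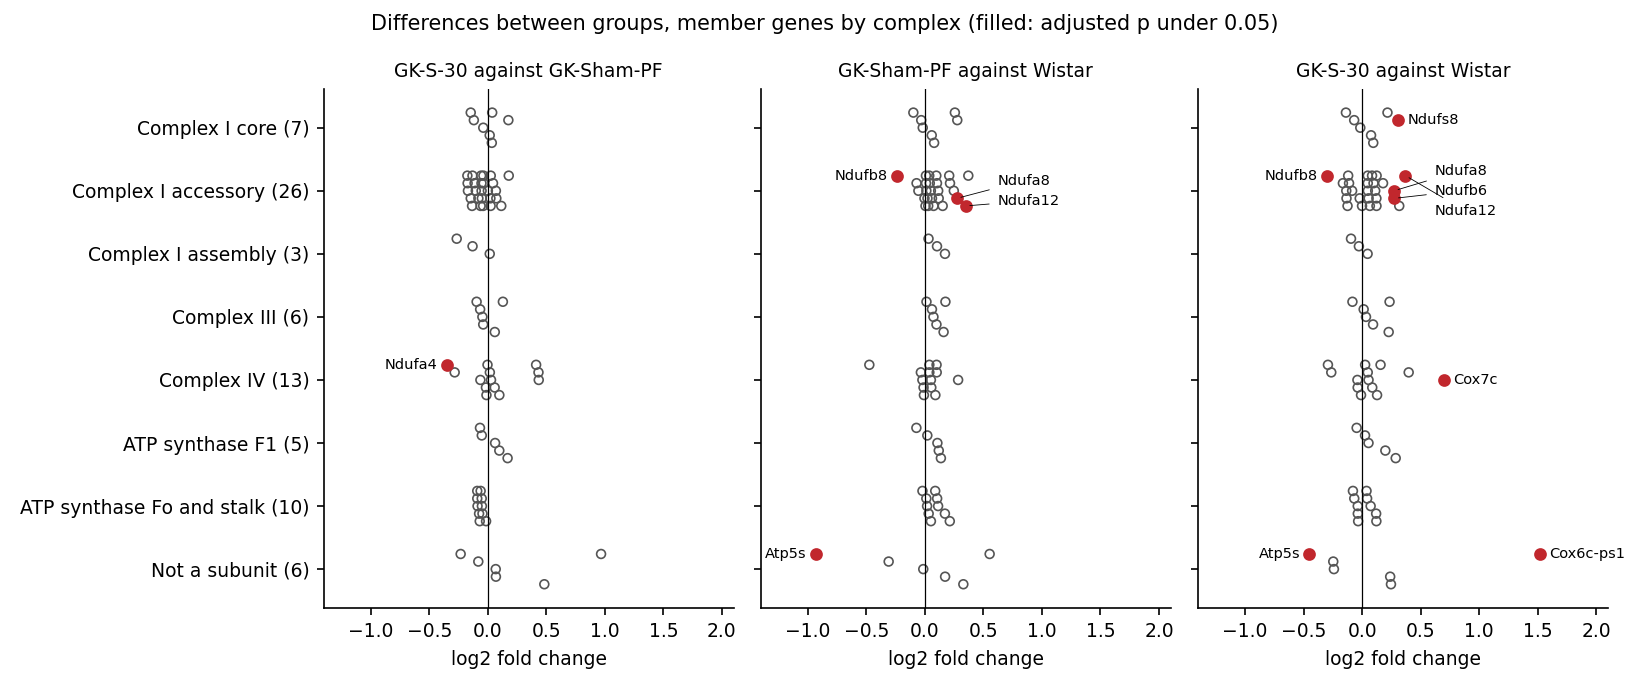
Log2 fold change of every tested member in the 3 comparisons (horizontal axis), with 1 row per complex and the number of tested members in parentheses; each point is 1 gene, and filled, named points have an adjusted p below 0.05. Most points lie close to 0, with 1 named gene in the left panel, 4 in the middle and 8 in the right.

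Complex I accepts electrons from NADH, and its core subunits hold the flavin and the iron-sulfur clusters. Of the 7 core subunits measured, none was called by limma in RYGB against sham, where differences ran from -0.15 to 0.18, with 0 at an unadjusted p under 0.05 and 1 by Tukey's comparison. Ndufs8, which carries iron-sulfur clusters near the ubiquinone site, read 11.34, 11.40, 11.09, 11.41 and 11.27 in Wistar, 11.60, 11.54, 11.72, 11.54 and 11.49 in sham, and 11.85, 11.55, 11.53, 11.57 and 11.57 in RYGB arrays. All arrays of both GK groups lay above all Wistar arrays. The difference was 0.31 (SE 0.09, adjusted p = 0.019) for RYGB and 0.28 (SE 0.09, adjusted p = 0.072) for sham, so the latter was not called. The other probe of the gene gave 0.34 and 0.27.

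The accessory subunits surround this core and are needed for its assembly and stability. Ndufa12 read 15.003, 15.10, 15.08, 14.96 and 14.96 in Wistar, 15.46, 15.35, 15.32, 15.34 and 15.37 in sham, and 15.58, 15.33, 15.22, 15.40 and 15.42 in RYGB arrays. Neither GK group overlapped with Wistar, whereas the GK groups overlapped with each other. The differences from Wistar were 0.35 (SE 0.08, adjusted p = 0.010) and 0.37 (SE 0.08, adjusted p = 0.0029), a fold of 1.27 and 1.29. Within the slide that held Wistar replicate 1 and 3 sham arrays, the difference was 0.37. Leaving out any 1 array did not end either call, whose adjusted p reached at most 0.033 and 0.010.

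Ndufa8, which has a role in linking the membrane and matrix arms of the complex, read 11.47, 11.52, 11.43, 11.45 and 11.42 in Wistar, 11.68, 11.61, 11.84, 11.81 and 11.71 in sham, and 11.84, 11.79, 11.57, 11.77 and 11.70 in RYGB arrays. Again every GK array lay above every Wistar array. The differences were 0.27 in both (SE 0.08), with an adjusted p of 0.037 for sham and 0.016 for RYGB, and 0.24 within the shared slide for sham. The sham call ended without Wistar replicate 1, 3, 4 or 5 or sham replicate 1, 3 or 4, with an adjusted p of up to 0.097.

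Ndufb6, a subunit of the membrane arm, read 14.31, 14.35, 14.28, 14.25 and 14.29 in Wistar, 14.51, 14.41, 14.47, 14.60 and 14.53 in sham, and 14.78, 14.49, 14.51, 14.55 and 14.53 in RYGB arrays. It was higher in RYGB than in Wistar by 0.28 (SE 0.08, adjusted p = 0.014), and the sham arrays also lay above all Wistar arrays, by 0.21 (adjusted p = 0.114). RYGB replicate 1 was the highest array. Ndufb8, another membrane arm subunit, moved the other way. It read 16.61, 16.66, 16.58, 16.64 and 16.54 in Wistar, 16.43, 16.33, 16.37, 16.40 and 16.30 in sham, and 16.43, 16.20, 16.34, 16.22 and 16.34 in RYGB arrays. All 10 GK arrays lay below all Wistar arrays, by -0.24 (SE 0.07, adjusted p = 0.046) and -0.30 (SE 0.07, adjusted p = 0.0055), or 1.18- and 1.23-fold, and by -0.23 within the shared slide. The sham call was close to the threshold: it remained only when RYGB replicate 1 or 2 was left out and ended without any other array (adjusted p up to 0.108). The RYGB call remained in each such fit.

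Ndufa10l1, an Ndufa10-like gene, has 3 probes, which were higher in sham than in Wistar by 0.37 each. The brightest was not called (adjusted p = 0.074), whereas the others had adjusted p values of 0.020 and 0.027 when all probes were fitted. Ndufab1, the mitochondrial acyl carrier protein, was also higher without overlap, by 0.25 (adjusted p = 0.102). None of the 26 accessory subunits was called by limma between the GK groups, with 2 at an unadjusted p under 0.05 and 2 by Tukey's comparison, where 17 means were lower and 9 higher in RYGB and the differences ran from -0.17 (Ndufb10) to 0.18 (Ndufa1). Under scaling to the 75th percentile that split was 11 lower and 15 higher, and with normexp correction Ndufb3 was called. In sham against Wistar, Ndufab1, Ndufb6 and Ndufs8 were called with normexp correction as well. For Ndufc2 the probes disagreed: the brightest differed by -0.12 between RYGB and Wistar, and the other by 0.61 (adjusted p = 6.8e-04 among all probes).

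Of the 4 complex I assembly factors, Ndufaf2 was well above background on no array. Ndufaf1, Ndufaf3 and Ndufaf4 were tested, and none was called by limma in any comparison, with 1 (Ndufaf4, between the GK groups) at an unadjusted p under 0.05 and 0 by Tukey's comparison. Ndufaf4 had the largest difference of these, -0.27 in RYGB against sham (SE 0.11, adjusted p = 0.169).

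Complex III hands electrons from ubiquinol to cytochrome c. None of its 6 tested subunits was called by limma in any comparison, and at an unadjusted p under 0.05 there were 0, 1 and 1 in the order given above, as by Tukey's comparison. Under scaling to the 75th percentile, Uqcrc1 and Uqcrc2, the core subunits, were called in RYGB against Wistar. All 6 means were higher in sham than in Wistar, by 0.01 to 0.18, although under scaling to the 75th percentile 5 were higher and 1 lower, and with slide as a block 4 and 2. Uqcrc2 differed most (0.18, adjusted p = 0.342), and Uqcrb was the only one without overlap, by 0.16 (adjusted p = 0.223). Uqcrq was well above background on 3 Wistar, 2 sham and 0 RYGB arrays and was not tested.

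Complex IV, cytochrome c oxidase, reduces oxygen. Ndufa4 read 14.01, 14.01, 14.23, 13.93 and 13.91 in Wistar, 14.12, 13.91, 14.09, 14.08 and 14.33 in sham, and 13.90, 13.59, 13.68, 13.79 and 13.81 in RYGB arrays. Every RYGB array lay below every other array, and Wistar and sham overlapped. The difference from sham was -0.35 (SE 0.09, 95% interval -0.55 to -0.15, adjusted p = 0.030) and that from Wistar -0.26 (adjusted p = 0.053). On the slide with 2 arrays of each GK group it was -0.46. The call against sham ended with slide as a fixed block (adjusted p = 0.169), under scaling to the 75th percentile (-0.26, adjusted p = 0.255), and without sham replicate 1, 3 or 5 or RYGB replicate 2 or 3 (adjusted p up to 0.064). Its paralog Ndufa4l2 had no named probe.

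Cox7c, a small subunit of the same complex, read 8.35, 8.34, 8.77, 8.81 and 8.94 in Wistar, 8.78, 8.82, 9.22, 9.08 and 8.72 in sham, and 9.33, 9.49, 9.25, 9.31 and 9.30 in RYGB arrays. All RYGB arrays lay above all others. The difference was 0.70 (SE 0.13, adjusted p = 0.0013) from Wistar, a fold of 1.62, and 0.41 (SE 0.13, adjusted p = 0.064) from sham. The other Cox7c probe did not show it: that probe differed by 0.07 (adjusted p = 0.691 among all probes) from Wistar and by 0.21 (adjusted p = 0.264) from sham. The mean of both probes was higher than in Wistar by 0.38. In the array annotation it lies at chr2:15254519-15254578 (rn4, minus strand), inside the span from 15254139 to 15255000 given for the brighter probe.

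Several complex IV subunits exist as tissue-specific pairs. Cox6a2, the heart and skeletal muscle form, read 8.996, 8.84, 9.09, 8.75 and 8.82 in Wistar, 8.94, 8.72, 8.36, 9.13 and 9.17 in sham, and 9.12, 9.498, 9.16, 9.40 and 9.32 in RYGB arrays. With the brighter probe, RYGB lay above Wistar without overlap and overlapped with sham. The difference from sham was 0.43 (SE 0.14, adjusted p = 0.069), and it was 0.15 on the shared slide. The call appeared when sham replicate 5 was left out (0.51, adjusted p = 0.039) and when both probes were averaged (0.65, adjusted p = 0.0077). The other probe read 6.60, 6.28, 6.19, 5.88 and 6.32 in Wistar, 6.38, 6.54, 6.21, 6.81 and 6.60 in sham, and 7.14, 7.67, 7.15, 7.47 and 7.47 in RYGB arrays. On that probe no RYGB array overlapped with another group, and the differences were 0.87 and 1.13. Cox6a1, the general form, differed by -0.02 from sham (95% interval within 1.5-fold).

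The dimmer Cox6a2 probe set RYGB apart from both other groups, as did the summed muscle markers given above. The brighter probe overlapped with sham. Of the markers, 4 of 8 smooth and 4 of 8 striated muscle genes were called in RYGB against sham, all higher. That is 50% of each list, beside 9.65% of all tested genes (5.16% higher). Actg2, smooth muscle actin, was higher by 2.35 and Myh7, a slow and cardiac myosin heavy chain, by 2.71. Their part in the result was not tested. Slc25a4, the adenine nucleotide carrier that predominates in muscle and heart, showed the same order: it read 11.08, 10.79, 10.54, 10.96 and 10.84 in Wistar, 10.97, 11.24, 11.04, 11.51 and 10.54 in sham, and 11.64, 11.97, 11.89, 11.64 and 11.56 in RYGB arrays. Every RYGB array lay above all others, by 0.68 against sham (SE 0.16, adjusted p = 0.015) and by 0.90 against Wistar (adjusted p = 7.3e-04). Slc25a5, the form of proliferating and epithelial tissues, was called in no comparison (adjusted p of 0.517 or more).

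**Figure D2:**
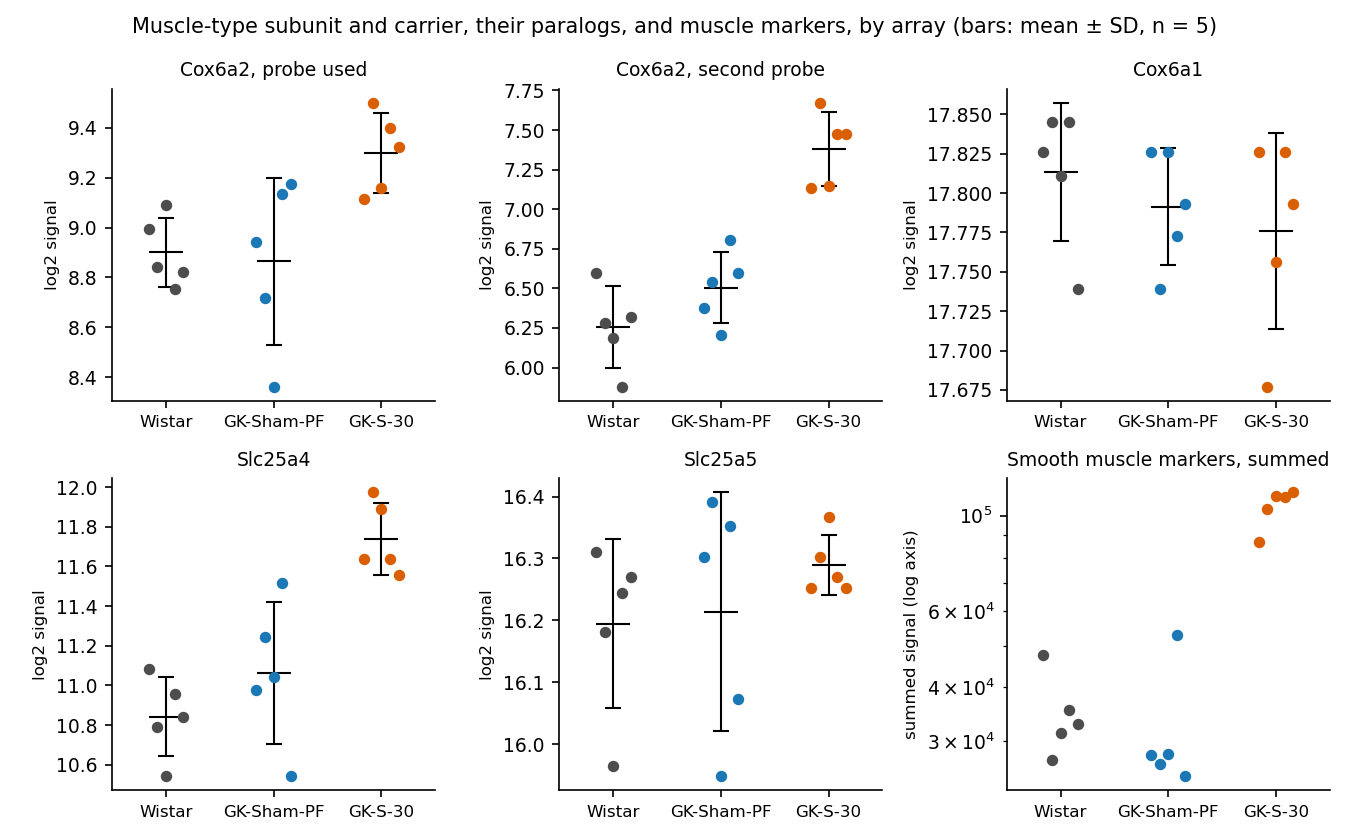
Log2 signal of Cox6a2 (both probes), Cox6a1, Slc25a4 and Slc25a5, and the summed signal of 8 smooth muscle markers on a log axis, in each array by group; points are arrays and bars are the mean and SD of 5 arrays, and the vertical axes do not start at 0. The RYGB points stand above the others for the second Cox6a2 probe, Slc25a4 and the muscle markers, and overlap with the others for Cox6a1 and Slc25a5.

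Of the other pairs, Cox4i2, the form linked to low oxygen and to lung, differed by -0.28 (SE 0.11, adjusted p = 0.114) between RYGB and sham and was called only when RYGB replicate 2, its highest array in that group, was left out (-0.37, adjusted p = 0.020). Cox4i1, the general form, differed by 0.10 (adjusted p = 0.612). Cox6b2, best known from testis, was lower in sham than in Wistar without overlap, by -0.48 (SE 0.19, adjusted p = 0.146), and higher in RYGB than in sham by 0.44 (adjusted p = 0.165). Cox7a2 and Cox8a, liver-type forms, differed by no more than 0.13 in any comparison and were not called. Cox8b, a muscle form, was well above background on no array, and Cox8c, a testis form, on 1 Wistar array. No named probe was found for Cox7a1 or Cox6b1.

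ATP synthase joins the catalytic F1 head, which makes ATP, to the Fo rotor in the membrane through a central and a peripheral stalk. None of its 15 subunits was called by limma in any comparison, and at an unadjusted p under 0.05 there were 0, 1 and 0, as by Tukey's comparison. For the 10 Fo and stalk subunits all means were lower in RYGB than in sham, by -0.01 to -0.09, but under scaling to the 75th percentile 7 of the 10 were higher. The interval of each lay within 1.5-fold in all comparisons. Atp5o, which links the peripheral stalk to F1, was the only one whose arrays did not overlap: it read 16.20, 16.17, 16.18, 16.15 and 16.14 in sham and 16.11, 16.08, 16.08, 16.09 and 16.04 in RYGB, a difference of -0.09 (SE 0.07, adjusted p = 0.481). Atp5g1, Atp5g2 and Atp5g3, which encode the same rotor subunit c, differed by -0.07, -0.05 and -0.06 between the GK groups and by 0.11, 0.02 and 0.10 between sham and Wistar.

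The F1 subunits spread more between arrays. Atp5b, the catalytic beta subunit, differed by 0.17 between the GK groups (adjusted p = 0.716) and by 0.29 between RYGB and Wistar (adjusted p = 0.384), and 4 of the 5 F1 subunits had an interval within 1.5-fold. The mean level of the 5 genes was lowest on Wistar replicate 3 (14.35) and sham replicate 5 (14.38), which were the dimmer arrays. The F1 subunits went both ways there. Atp5a1, Atp5b (12.34 and 12.45) and Atp5c1 had their lowest values of all arrays on these, and Atp5d (15.53 and 15.56) and Atp5e their highest. In the plot of each complex by array, the median member of the F1 part and of the complex I core lay at -0.27 and -0.33 from its gene mean on Wistar replicate 3. Over all 76 members the mean level was 13.40 (SD 0.04) in Wistar, 13.46 (SD 0.04) in sham and 13.46 (SD 0.07) in RYGB arrays.

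**Figure D3:**
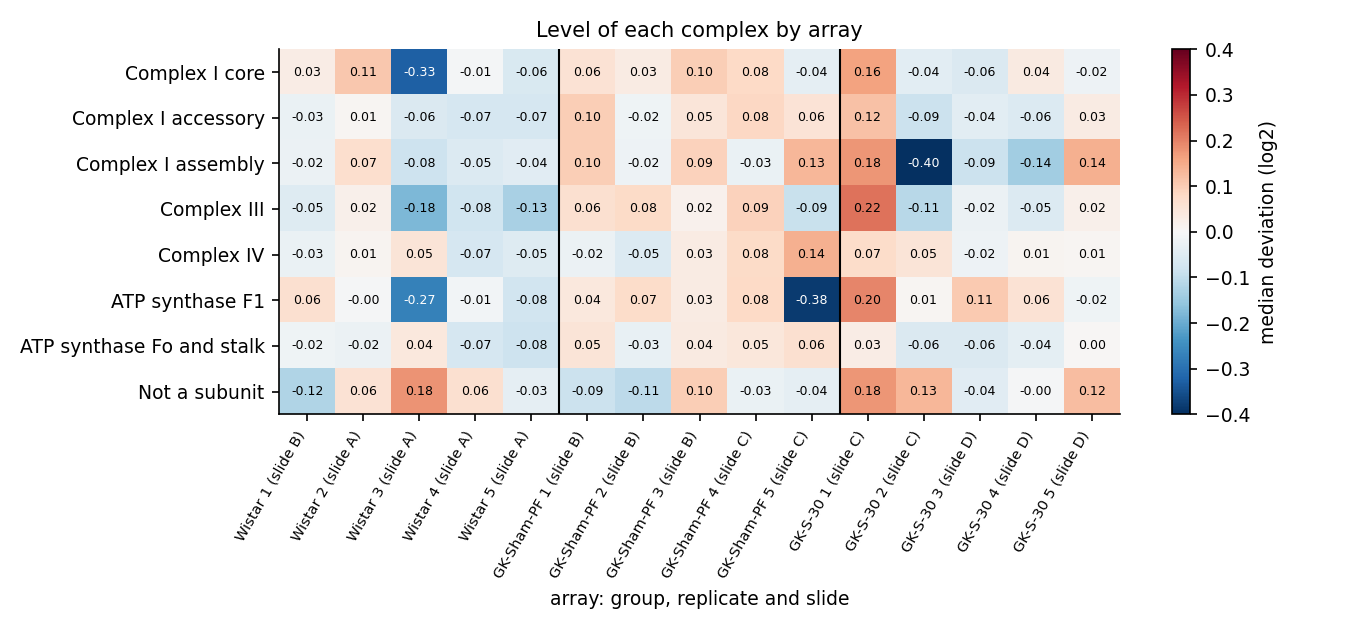
Median deviation of the members of each complex from their own gene means (log2, colour and printed value) for each array, with the group, replicate and slide under each column. The values run from -0.40 (complex I assembly, RYGB replicate 2) to 0.22 (complex III, RYGB replicate 1), and the F1 part stands at -0.38 on sham replicate 5.

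Among the members that are no subunits, Atp5s (now Dmac2l) was named after a coupling factor of ATP synthase. It read 6.14, 6.58, 6.36, 6.69 and 6.35 in Wistar, 5.75, 5.04, 5.604, 5.28 and 5.78 in sham, and 6.09, 6.19, 5.70, 5.75 and 6.13 in RYGB arrays. sham lay below Wistar without overlap, by -0.93 (SE 0.16, adjusted p = 0.0012), a fold of 1.91, and RYGB lay between and overlapped with both. With normexp correction the sham difference was -0.40, still called. The RYGB difference from Wistar was -0.45 (adjusted p = 0.048), a call that ended when any 1 of 11 of the 15 arrays was left out (adjusted p up to 0.114; it remained without Wistar replicate 1, sham replicate 2 or 5 or RYGB replicate 2). With slide as a fixed block that difference was -0.06 (adjusted p = 0.960). Cox7a2l, which helps to join complexes III and IV into supercomplexes, was lower in sham than in Wistar without overlap, by -0.31 (SE 0.10, adjusted p = 0.072).

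Cox6c-ps1 is a pseudogene of the complex IV subunit Cox6c. Its probe aligned with that of Cox6c over 48 bases with 41 identical, and the share of its signal that came from the parent gene was not tested. It read 2.77, 2.19, 4.67, 2.495 and 1.53 in Wistar, 2.61, 2.30, 4.61, 2.68 and 4.23 in sham, and 4.49, 4.41, 4.09, 4.12 and 4.16 in RYGB arrays. Only 1 Wistar and 2 sham arrays were well above background, against all 5 RYGB arrays, and the groups overlapped. The probe was tested only because it passed in RYGB, so its difference from Wistar, 1.52, or 0.17 with normexp correction, is given as a description. Cox6c itself differed by 0.06. Atp5sl (now Dmac2), Cox4nb (now Emc8) and Atp5hl1 were not called.

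**Figure D4:**
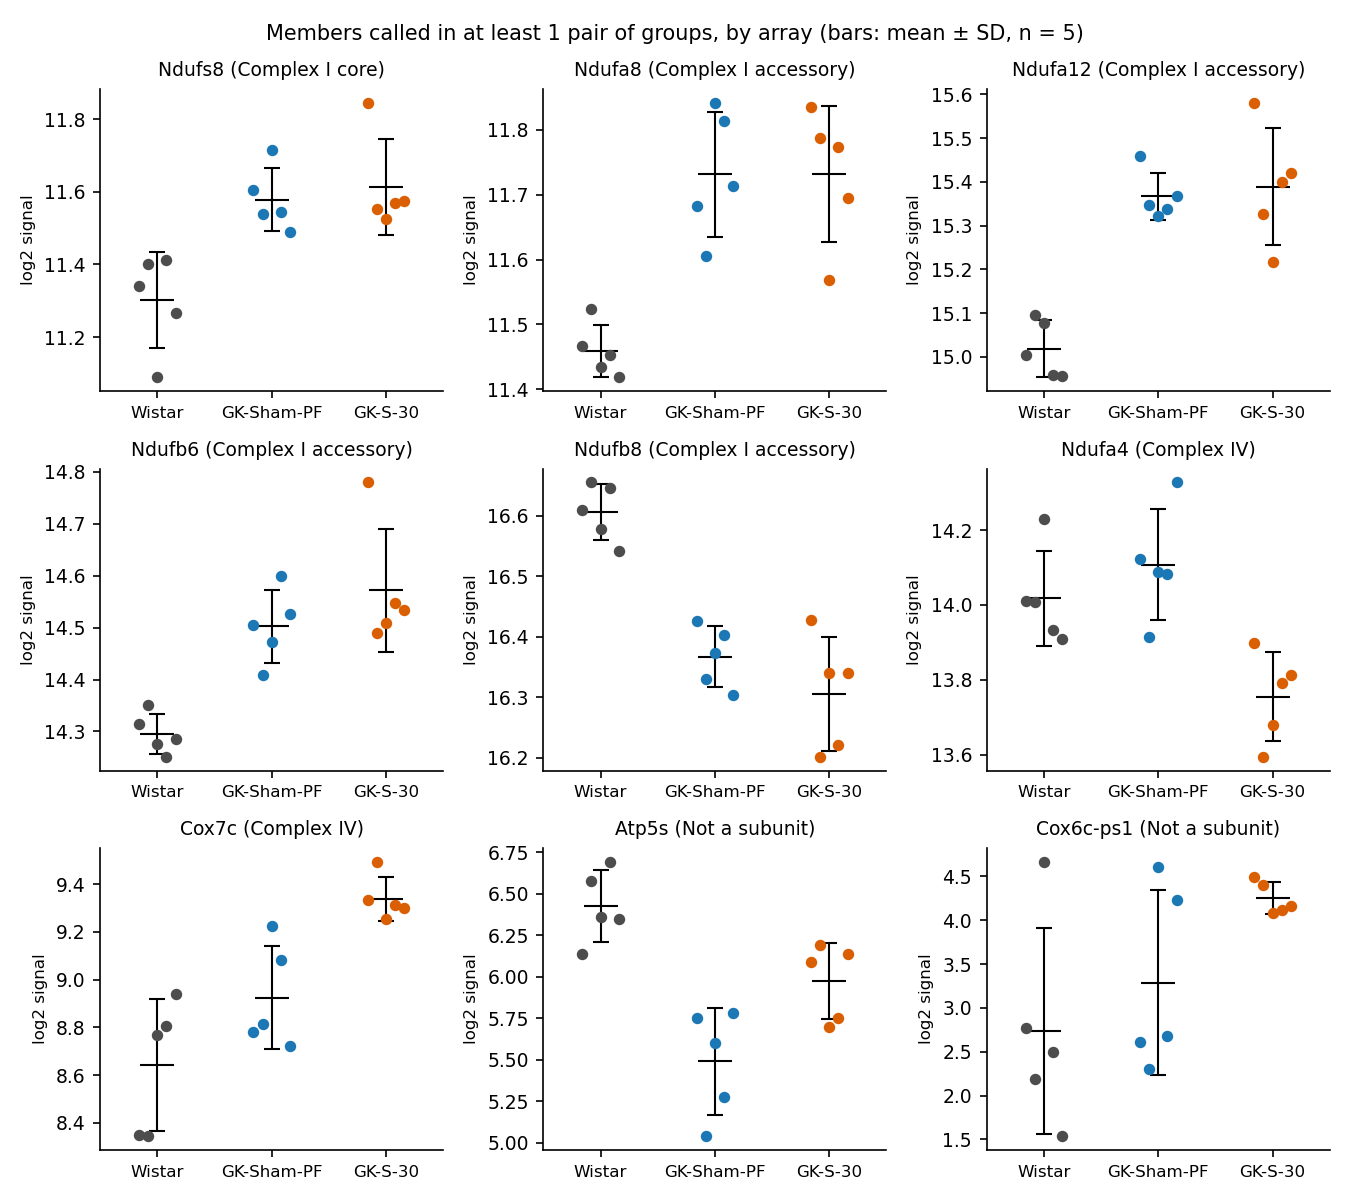
Log2 signal of the 9 members called in at least 1 comparison, 1 panel per gene, with 5 arrays per group as points and the mean and SD as bars; the vertical axes do not start at 0. Ndufs8, Ndufa8, Ndufa12 and Ndufb6 have both GK groups above Wistar, Ndufb8 has both below, and Ndufa4 has RYGB below the others.

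The mitochondrial genome encodes a small set of membrane subunits of complexes I, III and IV and of ATP synthase. Its genes are not named in the array files, and 18 probes of 7 genes were found by their descriptions after the named genes had been examined. None of the 7 was called between RYGB and sham, with differences from -0.13 (ND2) to 0.12 (COX3). For the brightest probe of COX2 this comparison could show no change, since it was the brightest or the second of all probes on each of the 10 GK arrays and read 18.30 or 18.47 on each, the top values that quantile normalization allows. Against Wistar, the brightest probe of COX2, a subunit of complex IV with a copper centre, was higher in sham by 0.83 (SE 0.08, adjusted p = 4.26e-06), that of ND2, a membrane subunit of complex I, was higher by 0.46 (SE 0.08, adjusted p = 9.7e-04), and that of CYTB, the cytochrome b of complex III, was lower by -0.40 (SE 0.09, adjusted p = 0.0075). In RYGB the same 3 were called in the same directions, and COX1 was lower by -0.36 (SE 0.09, adjusted p = 0.0076).

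The probes of COX2 disagreed with each other, as did those of CYTB described below. COX2 has 8, and the pair that was higher in the GK groups is shown here with the neighbour of each, in transcript order and on the plus strand of rn4, because they differ in response within one short stretch of sequence.
COX2, chrM:7326-7385: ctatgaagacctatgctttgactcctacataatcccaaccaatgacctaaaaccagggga
COX2, chrM:7366-7425: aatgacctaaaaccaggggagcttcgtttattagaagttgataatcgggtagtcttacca
COX2, chrM:7525-7584: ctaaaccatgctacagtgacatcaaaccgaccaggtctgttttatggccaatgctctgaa
COX2, chrM:7585-7644: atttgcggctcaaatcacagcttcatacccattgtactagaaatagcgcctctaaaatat

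The probe at 7366 read 16.07, 15.91, 15.86, 16.14 and 16.11 in Wistar, 16.70, 16.86, 16.54, 16.75 and 16.80 in sham, and 16.92, 17.08, 16.91, 16.96 and 16.90 in RYGB arrays. It was higher than in Wistar by 0.71 and 0.94 in the GK groups, and the probe at 7525 by 0.83 and 0.90, sizes bounded by the top of the distribution. Between the GK groups the probe at 7366 differed by 0.23 (adjusted p = 0.116). The probe at 7326, which overlaps with the one at 7366, differed by 0.04 and 0.09, and the probe at 7585 by 0.04 and 0.00. Over the 6 other COX2 probes the differences ran from -0.36 to 0.07 in sham and from -0.16 to 0.17 in RYGB. For CYTB the brightest probe was lower by -0.40 in sham whereas its other 3 probes were higher by 0.16 to 0.18, and for ND2 both probes were higher, by 0.46 and 0.35. All of these probes were well above background on all 15 arrays.

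**Figure D5:**
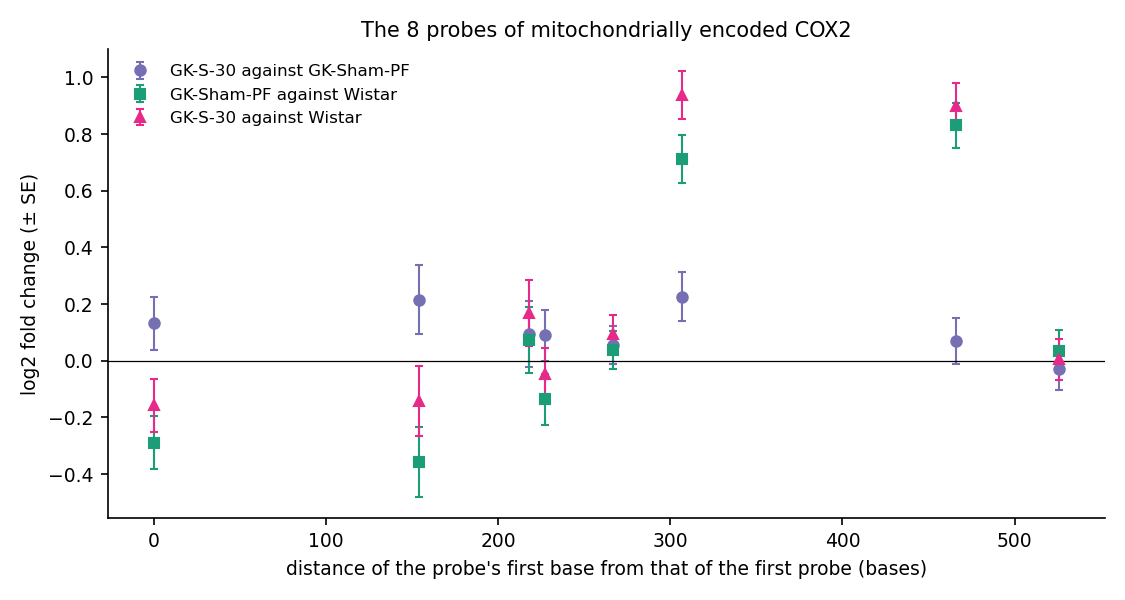
Log2 fold change with its SE (vertical axis) of the 8 COX2 probes against the distance of each probe's first base from that of the first probe, in bases, for the 3 comparisons. The probes at 307 and 466 bases stand at 0.71 to 0.94 in both comparisons with Wistar, and all other points lie between -0.36 and 0.23.

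Many nuclear members are known targets of NRF1, the ETS factor GABPA and YY1, so the members' promoters were read. RefSeq promoters (GRCr8), running from 250 bases before to 50 after the start, matched 67 of the 80 members by symbol. The words searched on both strands were GCGCANGCG for NRF1, CCGGAAG for ETS, AAGATGG for YY1, TCAAGGTCA for ERR, TGACGTCA for CRE and TATAAA for the TATA box, and adjacent words may overlap at their ends. The NRF1 word was found in 26.9% of member promoters beside 6.26% of all 27457, the ETS word in 29.9% beside 9.22%, and the YY1 word in 22.4% beside 7.30%. At least 1 of these 3 was found in 61.2% of member promoters beside 20.1% of all, whereas the TATA word was found in 5.97% beside 14.3% and the ERR and CRE words in 1.49% beside 0.412% and 2.99% beside 1.91%. The median GC content was 56.3% beside 52.3%. The NRF1 word was found in 9 of 23 promoters of complex I accessory subunits and in 5 of 9 of Fo and stalk subunits, but in 0 of 12 of complex IV. These shares are descriptions of letters and not of binding.

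The 250 bases before the start are shown for 2 complex I genes that were higher in RYGB than in Wistar rats, Ndufa12 and Ndufs8, and for Ndufa4, which was lower in RYGB than in sham, written 5′ to 3′ along the gene with a found word in capitals.
Ndufa12, chr7:30658066-30658315, plus strand, NRF1 word at -111: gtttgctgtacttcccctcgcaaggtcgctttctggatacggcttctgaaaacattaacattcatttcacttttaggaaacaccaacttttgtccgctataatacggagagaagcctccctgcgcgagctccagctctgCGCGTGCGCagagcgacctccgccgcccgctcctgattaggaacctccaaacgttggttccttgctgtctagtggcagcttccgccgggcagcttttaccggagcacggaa
Ndufs8, chr1:210573699-210573948, minus strand, ETS word at -12: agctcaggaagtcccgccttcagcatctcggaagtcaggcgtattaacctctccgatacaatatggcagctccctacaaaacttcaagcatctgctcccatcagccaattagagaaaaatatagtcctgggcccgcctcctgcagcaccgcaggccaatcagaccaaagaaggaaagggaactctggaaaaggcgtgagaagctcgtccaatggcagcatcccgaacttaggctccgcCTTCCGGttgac
Ndufa4, chr4:40975560-40975809, minus strand: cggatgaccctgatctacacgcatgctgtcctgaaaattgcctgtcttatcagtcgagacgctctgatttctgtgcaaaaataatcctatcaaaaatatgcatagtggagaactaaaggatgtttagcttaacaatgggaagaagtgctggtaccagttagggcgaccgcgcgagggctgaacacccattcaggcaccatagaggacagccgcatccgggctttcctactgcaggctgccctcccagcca
The Ndufa4 stretch held none of the 6 words. Ndufb8 and Cox7c held the YY1 word after the start, at 21 and 19, and Ndufb6 and Atp5s held none. Ndufa8 and Cox6c-ps1 were not matched.

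Genes that feed, assemble or regulate the chain were counted from lists written with the members. Complex II, succinate dehydrogenase, had 0 of 4 genes called in each comparison, with differences of at most 0.07. Among 29 assembly factors outside the name rule, 1 (3.45%, beside 9.65% of all tested genes) was called between the GK groups: Higd1a, a hypoxia-induced protein of the inner membrane that interacts with complex IV, which was higher in RYGB by 0.55 (SE 0.12, adjusted p = 0.011). It read 15.77, 15.85, 15.59, 15.62 and 15.67 in Wistar, 15.80, 15.50, 15.77, 15.75 and 15.65 in sham, and 16.39, 16.64, 16.00, 15.96 and 16.24 in RYGB arrays, so that all RYGB arrays stood above the rest. In sham against Wistar 2 of these 29 were called (6.90% beside 8.83%), the complex I assembly factors Acad9 (0.82, or 2.79 as the mean of its probes) and Timmdc1 (0.61), both higher, although the Timmdc1 call ended without sham replicate 2 (adjusted p = 0.054), and in RYGB against Wistar 8 were called, 4 higher and 4 lower, a share of 27.6% beside 26.2% of all tested genes.

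Of 9 carriers and inhibitors of ATP synthase, 2 (22.2%, beside 9.65% of all tested genes) were called between the GK groups: Slc25a4 (above) and Slc25a3, the phosphate carrier, which was lower in RYGB by -0.28 (SE 0.07, adjusted p = 0.024) and lay below both other groups on every array, but was not called under scaling to the 75th percentile (-0.18). Among 7 other donors to ubiquinone, Sqor, which oxidizes hydrogen sulfide, was higher in RYGB than in sham by 0.52 (adjusted p = 0.039), and 3 of the 7 were called against Wistar (42.9% beside 26.2%). Of 11 genes of ubiquinone synthesis, 2 (18.2%) were called in each comparison. Beside this, 9.65% of all tested genes were called in RYGB against sham, 8.83% in sham against Wistar and 26.2% in RYGB against Wistar. Coq4 was higher in sham than in Wistar by 0.49 (adjusted p = 0.015) and lower in RYGB than in sham by -0.52 (adjusted p = 0.012), so RYGB and Wistar differed by -0.03. Pdss2, which makes the isoprenoid tail, was lower in RYGB than in sham by -0.37 (adjusted p = 0.041), though not called as the mean of its probes (-0.17), and Coq8a was lower in sham than in Wistar by -0.59 (adjusted p = 0.018). The Coq8a call ended without Wistar replicate 4 or sham replicate 2 (adjusted p up to 0.054). The Slc25a3 call ended without sham replicate 1, 2 or 3 or RYGB replicate 5 (up to 0.065), and the Sqor call without Wistar replicate 4, sham replicate 1, 4 or 5 or RYGB replicate 1, 2 or 3 (up to 0.092). The Pdss2 call ended without Wistar replicate 4 or 5, sham replicate 1, 2, 3 or 4 or RYGB replicate 2, 3 or 4 (up to 0.104). It also ended in 7 of 14 other settings of processing, fit or arrays.

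Of 19 regulators of mitochondrial genes, 1 (5.26%, beside 9.65% of all tested genes) was called between the GK groups. This was Sirt3, the main mitochondrial deacetylase, which was lower in RYGB by -0.46 (SE 0.09, adjusted p = 0.0070). In sham against Wistar none of the 19 was called by limma (beside 8.83% of all tested genes), 1 had an unadjusted p under 0.05 and 0 passed Tukey's comparison. In RYGB against Wistar 4 were called (21.1% beside 26.2% of all tested genes), with Nrf1 higher by 0.38 (adjusted p = 0.035), or 0.15 and not called with normexp correction, and Ppara, Sirt3 and Polrmt lower, Ppara by -0.77 (adjusted p = 0.0083). The Nrf1 call ended without Wistar replicate 1, 3 or 5 or RYGB replicate 2, 4 or 5 (adjusted p up to 0.082). It also ended in 7 of 14 other settings of processing, fit or arrays, normexp among them. Of 11 markers of mitochondrial mass, 1 (9.09%) was called in each comparison with Wistar. Of all tested genes, 8.83% were called for sham and 26.2% for RYGB. The marker called was citrate synthase (Cs), higher than in Wistar by 0.33 in sham (adjusted p = 0.042) and by 0.64 in RYGB (adjusted p = 1.99e-04). The other 10 were not called in any comparison. The Cs call for sham ended without Wistar replicate 1, 3 or 5, any sham array or RYGB replicate 5 (adjusted p up to 0.116). It also ended in 7 of the 14 other settings of processing, fit or arrays.

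Mitochondrial ribosomal proteins, which translate the subunits encoded by mitochondrial DNA, were called in 0 of 70 cases between the GK groups by limma, beside 9.65% of all tested genes. Of these 70, 1 had an unadjusted p under 0.05 and 1 passed Tukey's comparison. In sham against Wistar 6 were called, 5 higher and 1 lower, which is 8.57% beside 8.83% of all tested genes. In RYGB against Wistar 8 were called, 6 higher and 2 lower, which is 11.4% beside 26.2%. Mrps10 stood apart, at 5.97, 5.998, 6.18, 6.08 and 6.11 in Wistar, 8.38, 8.23, 8.34, 8.09 and 8.15 in sham, and 8.88, 8.17, 8.34, 8.10 and 8.39 in RYGB arrays. Both GK groups exceeded Wistar, by 2.17 and 2.31, and Mrpl18 did so by 1.32 and 1.34. These were 1.33 and 1.44 for Mrps10 with normexp correction and 0.69 in both groups for Mrpl18 as the mean of its probes, all still called. Neither gene differed between the GK groups by more than 0.14.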

How the data were processed

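Total RNA was labelled with Cy3 by the authors and measured on Agilent arrays of the whole rat genome. They deposited the processed signal intensity of each spot from Feature Extraction 10.7.3.1, after local background subtraction and spatial detrending, with probe positions on rn4. A table of log2 values after quantile normalization was deposited too and was used as an alternative. Here log2 of the deposited intensity was taken, outlier-flagged spots were dropped, spots of a probe were averaged, and the 15 arrays were quantile normalized. Of 41012 probes, 22503 were named, through the accession (17541), the current symbol (3098) or a synonym (539) in RefSeq, and 1325 kept the file's name. Tested probes had to be well above background on all 5 arrays of some group, and the brightest tested probe stood for a gene. Differences were fitted with limma 3.58.1 in R 4.3.3 over all 15 arrays, with Benjamini-Hochberg adjustment over 13024 genes at 0.05, after a test on simulated data. Quantile normalization forces 1 distribution on all arrays, so a shift shared by all genes is lost. Figures were drawn with Python 3.11.15 and matplotlib 3.10.9.

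The members, marker lists, pathway lists and motifs were chosen with earlier results of these data known. Named genes were every called member (the 10 with the largest change in full), the tissue-specific isoforms of cytochrome c oxidase and the subunit c paralogs. The brightest and dimmest members that the rule also took are not given, since levels of different probes cannot be compared. Other members named stood out after their values were seen. The precision is limited by the number of arrays. The sources give 5 samples per group, each extracted separately.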

Additional observations from a re-analysis of the deposited data

Results flagged for a closer look

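In 63 sets of 5 arrays of 1 group (named members and mean levels of complexes) the gap between the highest or lowest array and its neighbour was divided by the whole range, and 4 exceeded Dixon's critical value of 0.71, where chance gives about 1 in 20. RYGB replicate 1 was high for Ndufb6 (14.78 beside 14.49 to 14.55 in the other 4, ratio 0.806) and for Ndufs8 (11.85 beside 11.53 to 11.57, ratio 0.848). sham replicate 5, a dimmer array, was low in the mean level of the ATP synthase F1 subunits (14.38 beside 14.65 to 14.68, ratio 0.895). On that array Atp5d and Atp5e had their highest values, as given above. Wistar replicate 2 was high in the mean level of the complex I assembly factors (9.46 beside 9.32 to 9.36, ratio 0.739).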

How the results depend on the processing

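No direction of a called member turned under any alternative run. The number of members called in RYGB against sham (1) was 0 under scaling to the 75th percentile, with slide as a fixed block, with only both groups of the pair fitted and by Tukey's comparison after adjustment, 2 with the mean of a gene's probes, 3 with normexp correction, 4 without both dimmer arrays and 8 by Tukey's comparison unadjusted, and the median difference was 0.026 under scaling to the 75th percentile. In sham against Wistar (4) it was 0 with slide as a fixed block, 7 with normexp and 12 by unadjusted Tukey. In RYGB against Wistar (8) it was 0 with slide as a fixed block and 16 by unadjusted Tukey, and the median was 0.11 under scaling to the 75th percentile. Leaving out 1 array at a time gave 0 to 2, 2 to 6 and 6 to 12 members called, and medians of -0.07 to -0.02, 0.05 to 0.07 and 0.01 to 0.06. With the replicate number as a block the counts were 0, 2 and 6, but the numbers share only a name: deviations of same-numbered arrays correlated at -0.174 to 0.141, -0.275 to 0.181 and -0.201 to 0.119, and 1, 0 and 1 of 5 correlated best with their own number. The cause of these changes was not tested. Wistar and RYGB share no slide, so the fixed slide block compares them only through sham. It compares sham with Wistar only on the slide holding 1 Wistar and 3 sham arrays. Leaving out both dimmer arrays and adding the mitochondrially encoded probes to the fit were compared as well, the latter chosen after seeing the data.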

Other observations

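Slide as a random block, with a correlation of -0.041 within slides, left the Ndufa4 call between the GK groups in place (adjusted p = 0.026). With a negative correlation, arrays of a slide were not modelled as more alike, so this fit cannot test a slide effect. The fixed block ended the call, as given above. The deposited normalized table gave 1, 3 and 9 members called in the order of the comparisons above.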
